A study of Mus musculus with 3 samples.

Results

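The genes described here are 10 genes characteristic of the endothelial cells that form the blood-brain barrier, measured in RNA sequencing libraries labelled as mouse microglia. They were chosen by gene symbol (Cldn5, Ly6c1, Slco1a4, Abcb1a, Pecam1, Cdh5, Flt1, Tek, Esam and Itm2a), and all 10 were found among the 24411 genes tabulated. The 3 libraries, replicates 1 to 3, form 1 group from C57BL/6J mice aged 6 to 8 weeks. The mice carry Mir137loxP/loxP;Tmem119-CreERT2 (cKO), in which a Cre recombinase expressed from the microglial gene Tmem119 and activated by tamoxifen deletes the microRNA gene Mir137. By the series design text, mice of 7 to 8 weeks received tamoxifen for 7 days, and 4 mice are mentioned without a link to the replicates. All 3 libraries are labelled with a Pu.1 inhibitor, which targets a transcription factor of macrophages and microglia and whose name, dose and route are not given in the sources used here. Mice with intact Mir137 and libraries without the inhibitor are not analysed here, so levels are described and no effect of the deletion or the inhibitor is estimated. The labels give the tissue as brain, whereas the design text describes purified microglia.

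Endothelial cells line the brain's capillaries and are sealed to one another by tight junctions above adherens junctions. They have few vesicles and no fenestrae in most brain regions, so that nutrients enter through specific transporters and many lipophilic compounds are returned to the blood by efflux pumps. Signalling through beta-catenin induces this state during development, and the receptors for VEGF and angiopoietins control vessel growth and stability.

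The libraries held between 15710750 and 17180404 estimated counts. All 10 homeostatic microglial genes, such as P2ry12 and Cx3cr1, were detected, at a median of log2(FPKM + 1) of 9.43 ± 0.05 (SD, n = 3). FPKM is the count scaled to library size and to the effective length of the gene. Detected here means that all 3 libraries reached an FPKM of 1. By the same measure the 10 endothelial genes stood at 6.60 ± 0.09, a difference within a library (endothelial minus microglial) of -2.83 ± 0.13 log2 units. Whether the replicates were separate animals is not stated, so SDs and p-values reflect only how far these libraries differed, and that may be technical. In bulk RNA, fewer endothelial cells and less RNA per endothelial cell cannot be told apart.

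All 10 endothelial genes were detected in all 3 libraries, as were 47.8% of all genes tabulated. The lowest estimated count of any of them in any library was 1603 and the highest 12293. Together they took 0.344, 0.361 and 0.358% of the counts in replicates 1, 2 and 3. They ranked between place 56 (Ly6c1) and place 2913 (Cdh5) in mean FPKM, which are percentiles 99.5 and 75.1 among the 11680 detected genes. The plot of levels by library shows the range over the genes, with a mean ratio of Ly6c1 to Cdh5 of 34.4 ± 2.80, beside that over the libraries of a gene, which was largest for Tek (29.7 to 35.7 FPKM).

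**Figure D1:**
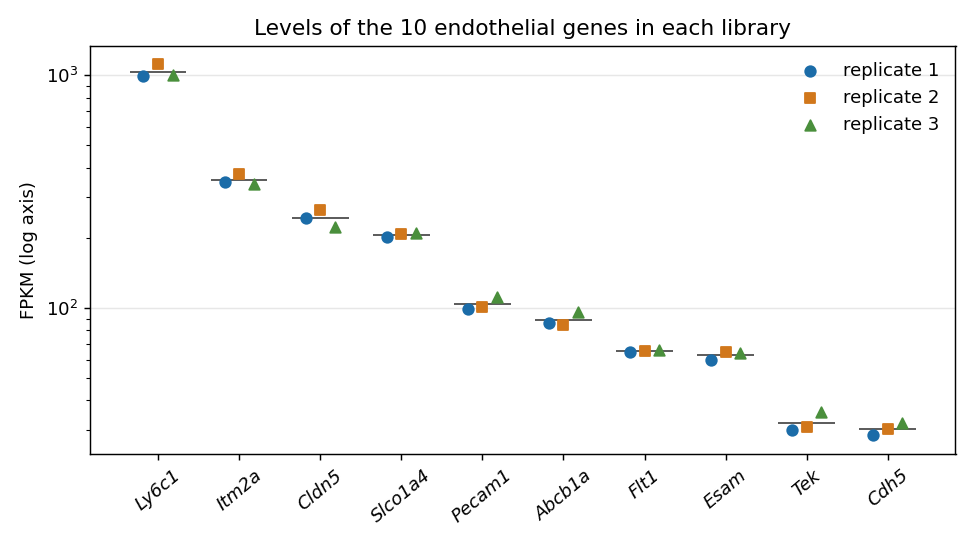
FPKM (log axis) of the 10 endothelial genes in replicates 1 to 3 (points), with the mean over the 3 libraries as a line, ordered by the mean. The means run from 1038 FPKM for Ly6c1 to 30.2 FPKM for Cdh5, and library values of neighbours overlap for Flt1 and Esam and for Tek and Cdh5.

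Among the junction and adhesion genes, Cldn5 was far above Cdh5 in FPKM. In CPM, counts scaled to library size but not to length, the gap was smaller, 277 ± 23.5 against 112 ± 6.84. Cldn5 encodes claudin-5, the main claudin of brain endothelial tight junctions. It lies on chromosome 16, 18776847 to 18778262 (GRCm38, plus strand), as a gene of 1 exon. Cldn5 was at 243, 264 and 223 FPKM in replicates 1, 2 and 3, a mean of 243 ± 20.6 (SD, n = 3). Replicate 2 was highest and replicate 3 lowest. Cdh5 encodes VE-cadherin, the adherens junction cadherin of endothelium (chromosome 8, 104101625 to 104144511). Cdh5 was at 28.4, 30.2 and 32.1 FPKM, a mean of 30.2 ± 1.87, and was the lowest of the 10 genes, with replicate 3 highest. Pecam1 encodes CD31, an adhesion molecule of endothelial junctions that platelets and leukocytes also carry (chromosome 11, 106654217 to 106750628). Pecam1 was at 98.8, 101 and 111 FPKM, a mean of 103.8 ± 6.63. Esam encodes an adhesion molecule of endothelial tight junctions (chromosome 9, 37528078 to 37538319). Esam was at 59.6, 64.9 and 64.0 FPKM, with replicate 1 lowest.

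Pecam1 exceeded Cdh5 by 3.44 ± 0.07 times within a library (ratio of FPKM, SD, n = 3), with 3.48, 3.36 and 3.47 in replicates 1, 2 and 3. Of 15 partner genes of tight and adherens junctions, 13 were detected. Of the 14 that could be tested, 8 varied between libraries beyond counting error (adjusted p under 0.05 in the chi-square test given below). The share called was 41.4% of all genes tested and 56.4% of those with a mean of at least 1000 counts. Ctnnb1, which encodes beta-catenin, was at 214 ± 7.54, F11r, the gene of the junctional adhesion molecule JAM-A, at 165 ± 9.07, and Jcad at 60.5 ± 2.16 FPKM. The lowest was Cgn, the gene of the epithelial scaffold cingulin, at 0.20 ± 0.07 FPKM. How much of the partner genes' levels came from microglia was not tested. Cldn5 exceeded occludin (Ocln, 22.6 ± 2.58 FPKM) by 11.4, 12.7 and 8.73 times in replicates 1, 2 and 3, and in CPM by 4.26 ± 0.78 times. The ratio was lowest in replicate 3, where Cldn5 was lowest and Ocln highest. Ocln was at 21.31, 20.87 and 25.55 FPKM in replicates 1, 2 and 3. Cldn5 exceeded the scaffold gene Tjp1 (59.97 ± 1.80 FPKM) by 4.07 ± 0.47 times. In CPM the direction turned and Cldn5 stood at 0.697 ± 0.080 times Tjp1. Other claudins were lower than Cldn5: Cldn1 was at 13.1 ± 1.55, Cldn12 at 4.00 ± 0.06 and Cldn3 at 0.88 ± 0.38 FPKM. Esam exceeded its relative Jam2 (33.7 ± 0.84 FPKM) by 1.87 ± 0.10 times in FPKM, whereas in CPM it stood at 0.648 ± 0.034 times Jam2.

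The transporter genes encode an uptake carrier and an efflux pump. Slco1a4 encodes an organic anion transporter of the barrier, Oatp1a4 (chromosome 6, 141805440 to 141856199). Slco1a4 was at 202, 209 and 209 FPKM in replicates 1, 2 and 3, a mean of 207 ± 4.0 (SD, n = 3). Its values lay close together, with replicate 1 lowest. In CPM it was the highest of the 10 genes, at 733 ± 13.99. Its relative Slco1c1, a thyroid hormone transporter of the same gene cluster, was at 132 ± 6.92 FPKM, and Slco1a4 exceeded it by 1.57 ± 0.05 times. The neighbouring relatives Slco1a1 and Slco1a6 were listed at 0 in all 3 libraries, and Slco1b2 and Slco1a5 were at 0.16 ± 0.03 and 1.28 ± 0.15 FPKM.

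Abcb1a encodes P-glycoprotein, the efflux pump of the brain capillary (chromosome 5, 8660077 to 8748575). Abcb1a was at 85.9, 84.8 and 96.2 FPKM in replicates 1, 2 and 3, a mean of 89.0 ± 6.29 (SD, n = 3). Replicate 3 lay above the other 2. The other major efflux pump, Abcg2, was at 86.6 ± 0.28 FPKM. The ratio of Abcb1a to Abcg2 was 0.994, 0.976 and 1.11, so per length the order of the pumps rested on replicate 3, and the mean ratio of 1.03 ± 0.07 fell to 0.985 without it. In CPM the ratio was 2.18 ± 0.16. Its tandem relative Abcb1b, which encodes a second P-glycoprotein, was at 9.52 ± 0.05 FPKM, and Abcb1a exceeded it by 9.34 ± 0.61 times. Abcb4, a phospholipid transporter gene of the same cluster, was at 11.6 ± 0.69 FPKM.

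All 19 other transporter genes of the barrier were detected, 18 of them at a mean of at least 10 FPKM. The part of microglia or other cells in these levels was not tested. Slc2a1, the gene of the glucose transporter GLUT1, was the highest at 486 ± 8.91 FPKM, followed by Slco2b1 at 358 ± 10.1 and Slc3a2 at 197 ± 13.2 FPKM, and Lrp8 was the lowest at 6.45 ± 0.04 FPKM. The median over these genes of log2(FPKM + 1) was 4.85 ± 0.18, which was 1.75 ± 0.25 below that of the 10 endothelial genes within a library. In the test between libraries 9 of the 19 were called. That compares with 41.4% of all genes tested and 56.4% of those with a mean of at least 1000 counts.

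The estimated counts of Abcb1a and Ly6c1 were not whole numbers, and the transcript sequences of both genes overlap with those of a neighbour. A count becomes non-whole when a read that could come from several genes is divided between them. The other 8 genes had whole counts in all 3 libraries. Of all genes with a count, 7.09% had a non-whole count in at least 1 library. Abcb1a had 6933.84, 6255.97 and 7392.03 estimated counts in replicates 1, 2 and 3. Added to those of Abcb1b they gave 7598, 6861 and 8029, whole numbers (within 0.02) in all 3 libraries. Abcb4 had 706, 724 and 734 counts, whole by themselves, so its sum with Abcb1a could not be whole. Reads divided between Abcb1a and Abcb1b alone give a whole sum. Abcb1a held 91.5 ± 0.49% of the summed count of the pair (SD, n = 3).

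In GENCODE M21 the coding sequences of Abcb1a and Abcb1b have 3828 bases each and are 87.7% identical in a gapped alignment. Their longest identical run covers 338 bases, positions 1357 to 1694 of the Abcb1a coding sequence, counted from 1 at the first base of the start codon. The end of that run and the bases after it are shown because a read within them carries at most 1 position that separates the genes, which is in capitals.
Abcb1a, coding bases 1635 to 1754: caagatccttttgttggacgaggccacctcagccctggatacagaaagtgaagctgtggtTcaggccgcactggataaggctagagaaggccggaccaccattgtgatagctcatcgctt
Abcb1b, coding bases 1644 to 1763: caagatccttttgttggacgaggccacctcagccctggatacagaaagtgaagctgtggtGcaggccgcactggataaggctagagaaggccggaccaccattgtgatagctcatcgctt
Position 1695 of Abcb1a, T1695G, is the single difference in these 120 bases, with the base of Abcb1a named first. Of the 50-base windows of the longest coding transcript of Abcb1a, 15.5% occurred in a transcript of Abcb1b and 18.6% in a transcript of any other gene, on either strand.

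Ly6c1 had the highest level per length, and its neighbour Ly6c2 is nearly identical in sequence. Ly6c1 encodes a lipid-anchored surface protein of the Ly6 family that brain endothelium expresses strongly (chromosome 15, 75044018 to 75048830). Ly6c2, the neighbouring gene at 75108158 to 75111970, encodes the Ly6C of inflammatory monocytes. Their coding sequences have 393 bases each and differ at 9 of them (97.7% identical). The first 264 coding bases of both are shown, 5′ to 3′, with the differing bases in capitals, because a read of Ly6c1 from the coding part can be told from one of Ly6c2 only where it covers such a base.
Ly6c1, coding bases 1 to 264: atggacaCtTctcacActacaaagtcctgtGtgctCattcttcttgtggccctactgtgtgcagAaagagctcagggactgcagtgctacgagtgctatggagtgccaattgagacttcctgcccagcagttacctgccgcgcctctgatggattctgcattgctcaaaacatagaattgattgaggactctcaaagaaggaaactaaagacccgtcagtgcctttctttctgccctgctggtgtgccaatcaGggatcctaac
Ly6c2, coding bases 1 to 264: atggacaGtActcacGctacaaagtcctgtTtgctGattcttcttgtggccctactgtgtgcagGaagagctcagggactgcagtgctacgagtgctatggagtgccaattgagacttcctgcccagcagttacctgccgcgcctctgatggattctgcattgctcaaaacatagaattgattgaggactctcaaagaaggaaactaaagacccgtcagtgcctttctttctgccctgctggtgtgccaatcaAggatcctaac
With the base of Ly6c1 first and positions counted from the start codon, the differences are C8G, T10A, A16G, G31T, C36G, A65G and G254A in this stretch, and T327C and G376A after it. The longest identical run holds 188 bases, from position 66 to 253. Of the 50-base windows of the longest Ly6c1 transcript, 31.7% occurred in Ly6c2 transcripts and 36.7% in a transcript of any other gene.

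Ly6c1 was at 991, 1114 and 1009 FPKM in replicates 1, 2 and 3, a mean of 1038 ± 66.6 (SD, n = 3), with replicate 2 above the other 2. Its estimated counts were 9627.78, 9818.93 and 9321.28. Added to those of Ly6c2 they gave 10728, 11078 and 10291, again whole in all 3 libraries. Ly6a, Ly6e and Ly6i had whole counts by themselves, so their sums with Ly6c1 could not be whole. Ly6c1 took 89.7, 88.6 and 90.6% of the pair in replicates 1, 2 and 3. In FPKM Ly6c1 exceeded Ly6c2 by 8.06, 7.21 and 8.86 times, and Ly6c2 itself was at 130.5 ± 21.4 FPKM. Ly6a, the gene of Sca-1, which endothelium also expresses and which lies in the same cluster, was at 580.01 ± 31.9 FPKM. The ratio of Ly6c1 to Ly6a was 1.79 ± 0.02 and varied less between libraries than that to Ly6c2, which was 8.04 ± 0.83. Ly6i was at 1.46 ± 0.12 FPKM and Ly6e at 682 ± 23.0 FPKM.

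The other 8 genes shared few or no windows. Slco1a4 shared 2.73% of its 50-base windows with other genes, most often with Slco1a5. Cldn5, Pecam1, Cdh5, Flt1, Tek, Esam and Itm2a shared 0% of theirs. Slco1a4 therefore had shared sequence with whole counts, beside relatives listed at 0 or up to 1.28 FPKM.

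Itm2a encodes a membrane protein with a BRICHOS domain (chromosome X, 107397099 to 107403376). Itm2a was at 348, 379 and 339.8 FPKM in replicates 1, 2 and 3, a mean of 356 ± 20.3 (SD, n = 3), and replicate 2 was again highest. Its relatives Itm2b and Itm2c, which many cell types express, were at 1673 ± 43.2 and 292 ± 12.1 FPKM. Itm2a stood at 0.212 ± 0.007 times Itm2b.

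In FPKM the growth factor receptor genes were among the lower of the 10. In CPM Flt1 took place 5, at 392 ± 4.49, and Tek place 8, at 142 ± 13.99. Flt1 encodes VEGF receptor 1, which binds VEGF-A strongly and signals weakly (chromosome 5, 147561604 to 147726011). Flt1 was at 64.4, 65.2 and 66.0 FPKM in replicates 1, 2 and 3, a mean of 65.2 ± 0.80 (SD, n = 3), the closest agreement between libraries of the 10 genes. Kdr, the main signalling receptor for VEGF-A, was at 17.1 ± 1.03 FPKM, and Flt1 exceeded it by 3.72, 4.06 and 3.65 times. Tek encodes TIE2, the receptor for angiopoietins (chromosome 4, 94739289 to 94874976). Tek was at 29.7, 30.8 and 35.7 FPKM, a mean of 32.1 ± 3.21, with replicate 3 above the other 2. Its partner receptor Tie1 was at 25.7 ± 0.46 FPKM, and the ratio of Tek to Tie1 was 1.18, 1.18 and 1.39.

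The ligands of these receptors had lower mean levels than Flt1 and Tek. Vegfb, which binds FLT1, was at 26.6 ± 3.27 FPKM, Vegfa at 2.65 ± 0.41 and placental growth factor (Pgf) at 2.20 ± 1.37. Of the TIE2 ligands, Angpt1 was at 2.01 ± 0.41 and Angpt2 at 1.40 ± 0.32 FPKM. The co-receptor Nrp1 was at 32.6 ± 1.10 FPKM. All 13 genes of the VEGF and angiopoietin systems, Flt1 and Tek included, were detected, and 7 of them were called in the test between libraries. Of all genes tested 41.4% were called, and 56.4% of those with a mean of at least 1000 counts.

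**Figure D2:**
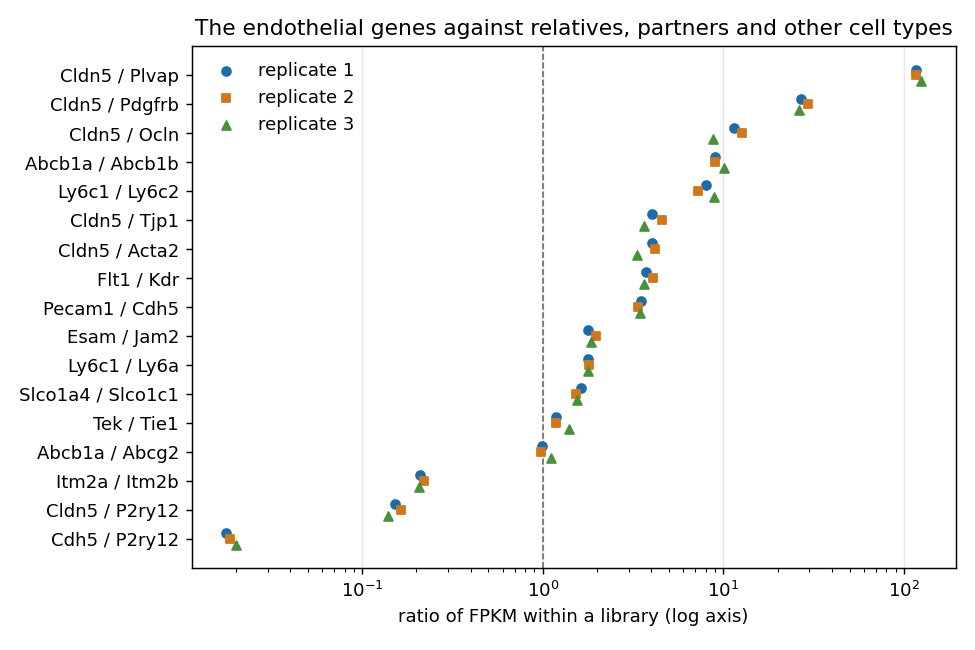
Ratio of FPKM within a library (log axis) of an endothelial gene to a relative, a partner or a marker of another cell type, in replicates 1 to 3. Abcb1a and Abcg2 lie on both sides of 1, with ratios of 0.994, 0.976 and 1.11, and the other pairs lie on 1 side of it in all 3 libraries.

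In mean FPKM the genes followed the order Ly6c1, Itm2a, Cldn5, Slco1a4, Pecam1, Abcb1a, Flt1, Esam, Tek and Cdh5. Of the 9 pairs of neighbours in this order, 7 had library values that did not overlap. The values of Flt1 and Esam overlapped, with a difference within a library of 0.05 ± 0.05 log2 units, as did those of Tek and Cdh5, with 0.08 ± 0.06. The smallest difference without overlap was that of Pecam1 and Abcb1a, 0.22 ± 0.03 log2 units. Cldn5 and Slco1a4 did not overlap either, but differed by 0.23 ± 0.13 log2 units. In all 9 pairs the higher gene was higher in 3 of 3 libraries. By exact permutation of signs (two-sided), p was 0.25 for each pair, before and after Benjamini-Hochberg adjustment over the 9, which is the smallest p that 3 libraries allow. The pairs and their direction were set by the same values, so neither result adds information on the order. The order depended on dividing by length: in CPM all 10 genes changed place, Slco1a4 leading at 733 ± 13.99 CPM and Esam closing at 99.0 ± 4.47 CPM.

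The question of how far the libraries differed was addressed for each gene with a chi-square test of its 3 counts against library size, adjusted over 13246 genes. It called 8 of the 10 endothelial genes at an adjusted p under 0.05, against 41.4% of all genes tested and 56.4% of the 3710 genes with a mean of at least 1000 counts, which all 10 endothelial genes reached. The test compares libraries, not conditions, and finds smaller differences in genes with more counts. The differences were small: the coefficient of variation in CPM was 1.15% for Flt1 and 9.85% for Tek, the lowest and the highest, with a median of 6.09%. Counting error alone would give 0.91 to 2.48%. The median over the genes with at least 1000 counts was 4.64%. Flt1 (adjusted p = 0.518) and Esam (adjusted p = 0.0737) were not called.

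The genes fell into those highest in replicate 2 and those highest in replicate 3, and the division mostly followed transcript length. Ly6c1, Cldn5, Itm2a and Esam, with effective lengths of 564 to 1573 nt, were highest in replicate 2. Pecam1, Cdh5, Tek, Abcb1a and Flt1, with 2973 to 5999 nt, were highest in replicate 3, and Slco1a4 (3542 nt) differed by -0.0017 log2 units (replicate 3 minus replicate 2). Cldn5 was at 300.3 CPM in replicate 2 and at 253 CPM in replicate 3. Tek was at 137 CPM in replicate 2 and at 158 CPM in replicate 3. Replicate 1 was the highest library for 0 of the 10 genes and the lowest for 7.

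Genes in general showed the same division toward both ends of the length range. Over genes with a mean of at least 100 counts, the median of replicate 3 minus replicate 2 in log2 CPM was -0.15 for the 769 genes of 500 to 1000 nt and 0.09 for the 2838 genes of at least 4000 nt. This median was only 0.01 for the 4109 genes of 2000 to 4000 nt, where Slco1a4, Pecam1 and Cdh5 lie. For Ly6c1 the difference was -0.14, and the trend at its length was -0.17. For Cldn5 it was -0.25 against a trend of -0.11, for Abcb1a 0.18 against 0.07, and for Tek 0.21 against 0.07, so these 3 departed further than the trend in the same direction. So did Pecam1 (0.13 against 0.01), Itm2a (-0.16 against -0.09) and Cdh5 (0.09 against 0.04). Flt1, the longest, differed by 0.01 against a trend of 0.09. Esam differed by -0.02 against a trend of -0.07, and Slco1a4 by -0.0017 against 0.03. With the trend removed, 9 of the 10 were called (Esam was not), against 36.1% of all genes and 45.2% of those with at least 1000 counts, and the adjusted p of Flt1 became 0.0125. Removing the trend was chosen after the data were seen, and the cause of the trend was not tested.

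**Figure D3:**
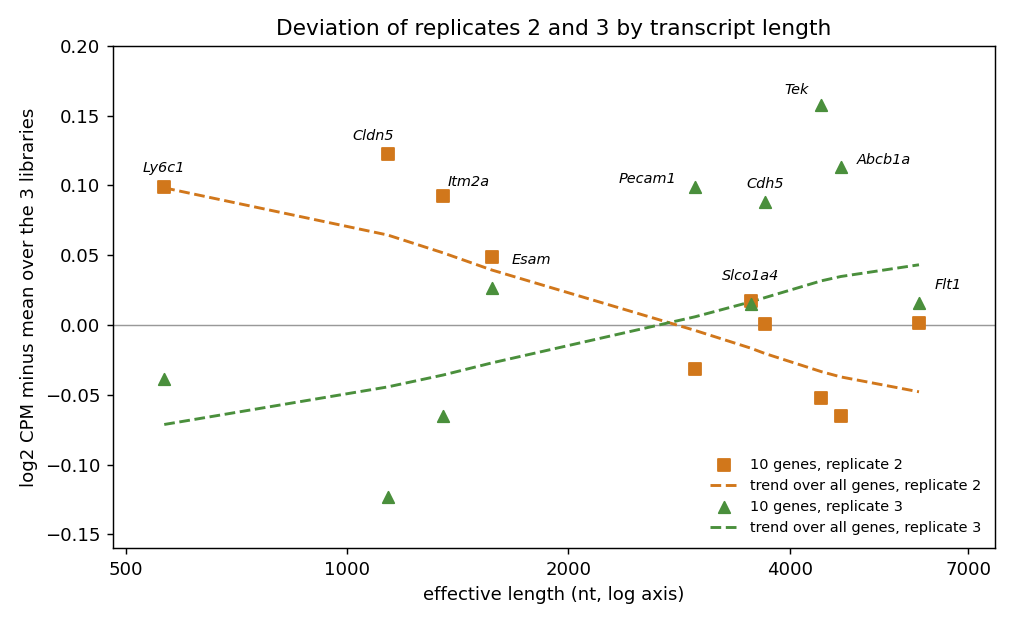
Deviation of log2 CPM from its mean over the 3 libraries (vertical axis) against effective length in nucleotides (log axis) for the 10 endothelial genes in replicates 2 and 3 (points), with the trend over all genes tested (dashed lines). Ly6c1, Cldn5 and Itm2a lie high in replicate 2 and low in replicate 3, and Tek, Abcb1a and Pecam1 the other way round.

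The calls rested on single libraries in the same way. Without replicate 3, Abcb1a (adjusted p = 0.657), Pecam1 (0.394), Tek (0.387) and Cdh5 (0.17) were no longer called, and 4 of the 10 genes were, against 23.8% of all genes. Without replicate 2, Ly6c1 (0.502), Itm2a (0.236) and Slco1a4 (0.0547) were lost and 5 were called, against 18.9% of all genes. Without replicate 1, Slco1a4 (0.919) and Cdh5 (0.166) were lost and 6 were called, against 28.6%. Cldn5 was called in all 3 of these fits.

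The average deviation of the 10 genes was -0.05, 0.02 and 0.03 log2 units in replicates 1, 2 and 3. Of 94 other genes on the endothelial lists with a mean of at least 100 counts, Ctnnb1, Slc16a1 (the gene of a monocarboxylate transporter) and Il1r1 had the profiles nearest to it, at root mean square distances of 0.006, 0.010 and 0.013 log2 units over 3 libraries. The median distance of the 94 was 0.066 log2 units. Over 3 libraries such a likeness describes these samples only. The average also joins genes with opposed deviations. In replicates 2 and 3 Cldn5 deviated by 0.12 and -0.12 log2 units, and Tek by -0.05 and 0.16.

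General endothelial genes were present in all libraries, and the part of microglia in their levels was not tested. All 19 were detected, 18 at a mean of at least 10 FPKM, and their median level of 5.29 ± 0.06 lay 1.31 ± 0.03 log2 units below the median of the 10 endothelial genes (SD, n = 3). The highest were the sialomucin gene Cd34 at 168 ± 10.5, Ecscr at 113 ± 7.26 and endoglin (Eng) at 97.9 ± 1.89 FPKM, and the lowest was Clec14a at 6.70 ± 0.17 FPKM. The endothelial markers Kdr, Tie1, Emcn, Erg and Sox17, which are not among the 10, were all detected, Emcn at 40.4 ± 2.74, Erg at 15.8 ± 1.17 and Sox17 at 15.66 ± 1.94 FPKM. Plvap, which encodes the diaphragm protein of fenestrated endothelium, was at 2.08, 2.28 and 1.80 FPKM. Cldn5 exceeded it by 117, 116 and 124 times in replicates 1, 2 and 3, and in CPM by 77.9 ± 2.97 times.

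Genes of cells that adjoin the endothelium were mostly lower. All 10 pericyte genes were detected, with a summed level of 205 to 231 FPKM per library and a list level 3.95 ± 0.10 log2 units below the 10 endothelial genes. Rgs5 was at 118 ± 15.74, Vtn at 58.99 ± 2.33, Ndufa4l2 at 12.87 ± 1.198 and Abcc9 at 1.57 ± 0.17 FPKM. Cldn5 exceeded the pericyte receptor gene Pdgfrb (8.82 ± 0.32 FPKM) by 27.6 ± 1.57 times and the smooth muscle actin gene Acta2 (63.5 ± 3.24 FPKM) by 3.85 ± 0.46 times, and in CPM by 6.10 ± 0.34 and 1.91 ± 0.23 times. Of 5 smooth muscle genes 4 were detected, with 129 to 137 FPKM in sum, Tagln following Acta2 at 45.6 ± 1.99 and Cnn1 lowest at 0.43 ± 0.13 FPKM. Of 5 fibroblast genes 3 were detected, with 10.7 to 16.8 FPKM in sum, Dcn at 6.76 ± 3.08 and Lum at 0.30 ± 0.08 FPKM. All 9 astrocyte genes were detected, with 194 to 224 FPKM in sum, Slc1a3 at 100.5 ± 1.72 and Aldh1l1 at 2.73 ± 0.30 FPKM. The summed level of the 10 endothelial genes was 2151, 2343 and 2186 FPKM.

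Pecam1 and Esam are also carried by blood cells, so the genes of platelets and neutrophils were set beside them. Of 9 platelet genes 3 were detected, with 88.0 to 105 FPKM in sum per library. Pf4, which border macrophages also express, was at 68.6 ± 6.61 and Gp9 at 19.4 ± 3.56 FPKM, whereas Ppbp was at 2.40, 0.24 and 0.69 and Itga2b at 0.20, 0.48 and 0.25 FPKM. All 10 neutrophil genes were detected, with 14201 to 15688 FPKM in sum, led by S100a8 and S100a9, and with Cxcr2 lowest at 26.1 ± 2.77 FPKM. That sum rests on division by short effective lengths, 112 nt for S100a8 and 240 nt for S100a9. As a share of all counts the neutrophil genes took 0.348 ± 0.015%. The 10 endothelial genes took 0.354 ± 0.009% and the microglial genes 3.03 ± 0.04%. Replicate 2 was highest in the sum of the neutrophil genes and of the platelet genes, whereas Pecam1 was highest in replicate 3 and Esam in replicate 2. S100a8, S100a9 and Pf4, which lead these sums, are shorter than 500 nt. Over all genes that short, the median deviation was 0.125 log2 units in replicate 2 and -0.10 in replicate 3. The place of replicate 2 in these sums therefore cannot be told apart from that length pattern. None of the genes on these lists of other cells was at 0 in all 3 libraries. The part of these cells in the level of Pecam1 or Esam was not tested.

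The endothelial genes were lower per length than the microglial marker P2ry12. Cldn5 stood at 0.151 ± 0.012 times P2ry12 (1608 ± 7.79 FPKM) and Cdh5 at 0.0188 ± 0.0012 times P2ry12, and in CPM at 0.083 ± 0.0067 and 0.034 ± 0.0021 times. The microglial genes Csf1r, at 2370.2 ± 54.3 FPKM, and P2ry12 lay above Ly6c1, while the lowest of the list, Sall1 at 134 ± 5.88 FPKM, lay below Ly6c1, Itm2a, Cldn5 and Slco1a4.

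**Figure D4:**
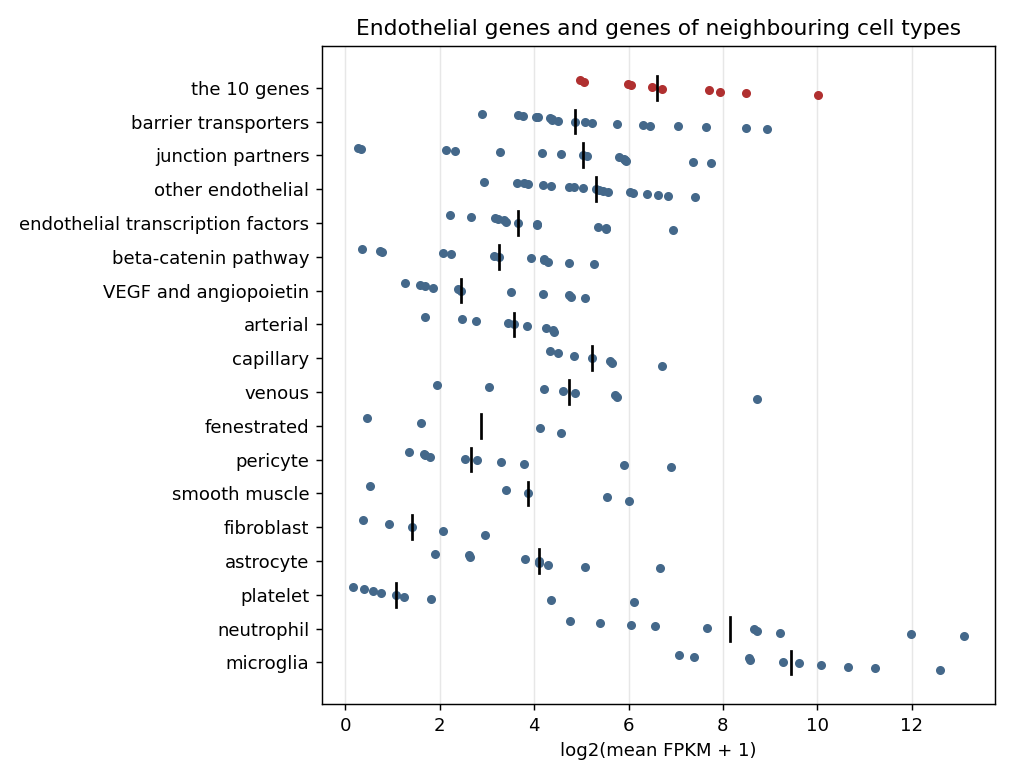
Mean FPKM over the 3 libraries, as log2(mean FPKM + 1), of the 10 endothelial genes (top, red) and of the genes of related lists without them (blue), 1 point per gene, with the median of each list as a bar. The median of the 10 genes lies above those of all other lists shown except the neutrophil and microglial lists.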

How the data were processed

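Total RNA was extracted with a column kit, per the labels' protocols, and 3 libraries of 1 group were sequenced. The authors deposited estimated counts per gene, not normalised between libraries, and FPKM per gene. RSEM, DESeq2 and STAR 2.7.9a are named with the builds GRCm38 and mm10, per the submitters' processing notes. Settings, annotation, library preparation and strandedness are not given in the sources used here, so reads of antisense or overlapping genes may be mixed. There were 0 columns of other samples, and 12 gene names turned into dates were left out of joins.

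Genes, lists (192 symbols in 20 lists, all found, 3 under older names), ratios and tests were chosen with earlier results of these data known. Named were the 10 genes, their relatives and ratio partners, the 3 highest genes and the lowest gene in mean FPKM of each list, and the 3 genes nearest in profile. One gene named by this rule is not reported here. Other genes named as relatives, ligands or defining markers come from the same lists. Effective length was the count divided by FPKM and library total. Estimated counts were rounded for edgeR 4.0.16 (R 4.3.3), whose default filter kept 13246 genes and whose TMM factors set the library sizes. A chi-square test of homogeneity with Benjamini-Hochberg adjustment, threshold 0.05, compared libraries. It was also run on simulated counts without a length trend, and the outcome is not given here. Alternatives were DESeq2 1.42.0 size factors, total counts, no filter, a pseudocount of 0.1 in place of 1, FPKM of at least 5, TPM, CPM and each library left out. Removing the length trend (lowess) and summing Ly6c1 with Ly6c2 and Abcb1a with Abcb1b were added after the data were seen. Coordinates (1-based) and sequences are from GENCODE M21 (GRCm38). Library totals of 15710750 to 17180404 counts set a limit of 0.175 to 0.191 CPM for a count of 0 (3 counts), for counting error only.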

Additional observations from a re-analysis of the deposited data

How the results depend on the processing

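The mean ratio of Ly6c1 to Cdh5, the highest and the lowest of the 10 genes, was 34.4 in FPKM and in TPM, between 33.2 and 35.9 with a library left out, and 5.24 in CPM, which does not divide by length. Leaving out a library changed the number of genes called between libraries from 5485 to between 2499 (without replicate 2) and 3788 (without replicate 1), with 3158 without replicate 3, where 2 libraries in place of 3 enter the test. DESeq2 size factors, total counts and no filter gave 5483, 5501 and 6415 calls, and 8 of the 10 endothelial genes were called in each, as also with the counts of Ly6c1 and Abcb1a summed with those of their neighbours. Removing the length trend gave 4778 calls. Of 17 ratios, those of Cldn5 to Tjp1 (0.697) and of Esam to Jam2 (0.648) turned below 1 in CPM, by the construction of that unit, and another 14 moved by more than the spread between libraries. Leaving out a library turned 1 ratio, Abcb1a to Abcg2, which ranged from 0.985 (without replicate 3) to 1.05. All 10 genes stayed detected at an FPKM of at least 5 and with each library left out, and 7 or 8 pairs of neighbours did not overlap with a library left out. No analysis paired between conditions was possible because the libraries form 1 group. The test between libraries finds smaller differences at higher depth: Esam, with the fewest counts, was not called at a coefficient of variation of 4.52%, whereas Slco1a4 was called at 1.91%.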

Other observations

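Genes of particular vessel segments and of the programme that induces the barrier were also present. All 7 capillary genes were detected, Spock2 at 103 ± 4.11, Cxcl12 at 49.5 ± 0.61, the carbonic anhydrase gene Car4 at 47.9 ± 4.50 and the lipid transporter gene Mfsd2a at 19.1 ± 1.90 FPKM (mean ± SD, n = 3). All 9 arterial genes were detected at lower levels, Gkn3 at 20.5 ± 3.78, Sema3g at 20.1 ± 0.55, Hey1 at 17.9 ± 1.41 and the connexin gene Gja5 at 2.23 ± 0.48 FPKM. All 8 venous genes were detected, Lcn2 at 424 ± 15.1, which is also on the neutrophil list, von Willebrand factor (Vwf) at 52.9 ± 2.54, Vcam1 at 51.7 ± 4.74 and the transcription factor gene Nr2f2 at 2.84 ± 0.24 FPKM. Of 5 leukocyte adhesion genes, Icam1 was at 59.1 ± 1.58, Vcam1 at the level given, Icam2 at 27.5 ± 3.32, and the selectin genes Selp and Sele were not detected, at 0.70 ± 0.27 and 0.63 ± 0.16 FPKM.

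All 13 endothelial transcription factor genes were detected, Epas1 at 122 ± 8.11, Ets1 at 45.0 ± 1.99, Sox18 at 44.9 ± 2.03 and Sox7 at 3.66 ± 0.24 FPKM. The part of microglia in these levels was not tested either. Of 13 genes of beta-catenin signalling 10 were detected, Lrp5 at 37.3 ± 2.17, Apcdd1 at 25.7 ± 0.73 and Reck at 18.5 ± 2.01 FPKM, and those not detected were the ligand genes Ndp, Wnt7b and Wnt7a, at 0.71 ± 0.24, 0.66 ± 0.25 and 0.28 ± 0.06 FPKM. Of 4 genes listed for fenestrated or choroidal endothelium 3 were detected, Plpp1 at 22.8 ± 1.74, Plpp3 at 16.5 ± 1.62 and Plvap at 2.05 ± 0.24, with Esm1 at 0.37 ± 0.22 FPKM. All 4 lymphatic genes were detected, Lyve1, which border macrophages also express, at 21.7 ± 3.31, Pdpn at 6.98 ± 0.67, Flt4 at 4.22 ± 0.48 and the defining transcription factor gene Prox1 at 2.05 ± 0.34 FPKM. Of the relatives, Cdh2, the gene of N-cadherin, was at 4.21 ± 0.27 FPKM.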
